A study of Gallus gallus with 27 samples.

Results

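Open chromatin was compared between reporter-negative cells from the vagal region of HH18 chick embryos (stage 18 of Hamburger and Hamilton) and reporter-negative cells of the earliest stage in the series, which the sample labels call HH10. The comparison takes 6 of the 27 libraries, 3 at each stage, chosen by population and stage in the sample labels and count-table headers, and covers all 140062 intervals of the deposited table. Of these, 127618 intervals passed a filter on low counts and were tested; the other 12444 (8.89%) had at most 66 counts in any of the 9 negative libraries. The HH18 negative cells carried neither reporter signal (NC2-, E2-) and came from wild-type embryos electroporated with NC2:citrine and E2:citrine at stages 8 to 9. The HH10 negative cells were sorted as NC2- alone and came from wild-type embryos electroporated with NC2:citrine at stage 4. Negative cells of stage 25 (HH25), electroporated and gated like those of HH18, entered the fit as an additional group of 3 libraries. The labels name 3 biological replicates per stage without saying how many embryos each holds, and give no sex of the embryos. The columns matched to the HH10 samples carry stage 12 in their names, so the early stage is HH10 by the labels and 12 by the table; it is called HH10 throughout. Stage, electroporated reporters, age at electroporation and sorting gate all differ between the groups and cannot be told apart.

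ATAC-seq uses a transposase that inserts sequencing adapters where DNA is not covered by nucleosomes, so the reads counted in an interval report how accessible it is. Regulatory elements such as enhancers and promoters open and close as cells take on their fates. The vagal region lies at the level of the hindbrain and first somites and gives rise to neural crest that populates the gut and heart, and NC2 and E2 are enhancer reporters of the neural crest genes FOXD3 and SOX10. A negative gate therefore keeps a mixture of the remaining tissues of the dissected region, such as neural tube, mesoderm, ectoderm and endoderm, and it also keeps any crest cell in which the reporter was not introduced. In a mixture, a change in the share of a tissue and a change in accessibility within its cells cannot be told apart. Intervals are given by position in the galGal5 build because no annotation of that build was used, so the sort could not be checked against marker genes. In birds, females carry 1 Z and 1 W chromosome and males carry 2 Z chromosomes.

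The HH18 negative libraries held 3604040, 992341 and 2777640 reads over the intervals, and the HH10 negative libraries held 5964784, 6195495 and 4350235. Every HH18 library was shallower than every HH10 library. The lowest deposited value was 1 in each library, so a 1 may stand for no read; 2.52, 23.8 and 4.43% of intervals were at that value in the HH18 libraries, against 0.383 to 1.41% in the HH10 libraries. A floor of 3 counts equalled 0.832, 3.02 and 1.08 CPM (counts relative to a common library total, here before TMM scaling) in the HH18 libraries and 0.484 to 0.690 CPM in the HH10 libraries. Spearman correlations across intervals were 0.686 to 0.785 between HH18 libraries, 0.83 to 0.876 between HH10 libraries and 0.469 to 0.567 between the stages. Pairs of replicates gave a chi-square per degree of freedom of 1.66 to 2.25 within HH18 and 2.31 to 2.8 within HH10. At a given spread this value grows with depth, so the lower values of the shallower HH18 libraries do not show closer agreement. Independent reads would give about 1; each library was kept as 1 replicate.

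Accessibility of the negative cells differed between the stages at many intervals, with rises and falls in close to equal numbers after TMM scaling. Of the 127618 tested intervals, 31666 (24.8%) were called at an adjusted p below 0.05 by edgeR's quasi-likelihood test, 16234 (12.7%) of them higher and 15432 (12.1%) lower in HH18 negative cells. A further description uses TMM-scaled values without a test. The 3 HH18 and the 3 HH10 values did not overlap in 46673 intervals (36.6%), 22226 (17.4%) with HH18 above and 24447 (19.2%) with HH18 below. With 3 against 3 libraries, random order alone separates the groups, in either direction, with a probability of 0.1. The median log2 fold change of all tested intervals was -0.01. TMM scaling takes most intervals as unchanged and centres the changes near 0. This median and the balance of rises and falls are therefore largely set by the scaling. Rises made up 48.0% of calls with counts minus 1 and 56.1% with DESeq2, the ends of the range over the alternatives. The median called rise was 1.54 on the log2 scale (quartiles 1.14 and 2.05), and the median called fall was -1.61 (quartiles -2.05 and -1.26). Absolute changes over 2 on the log2 scale were found in 4344 (26.8%) of the higher calls and 4202 (27.2%) of the lower calls, and over 4 in 75 and 71. Among called intervals, 86 had means over 10 CPM in HH18 and under 1 CPM in HH10, and 65 the other way round. With the lowest value, 1, in every HH18 library, the HH18 mean was already 0.567 CPM (as at chr2:140035383-140035583). Depth and the floor therefore limit how many intervals can be under 1 CPM in HH18. On simulated counts with the same lowest value of 1, a requirement that most 4-fold falls be called was not met. The parts of the floor and of depth in this were not tested. Rises and falls may therefore not be equally detectable, and their numbers are not corrected for that.

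**Figure D1:**
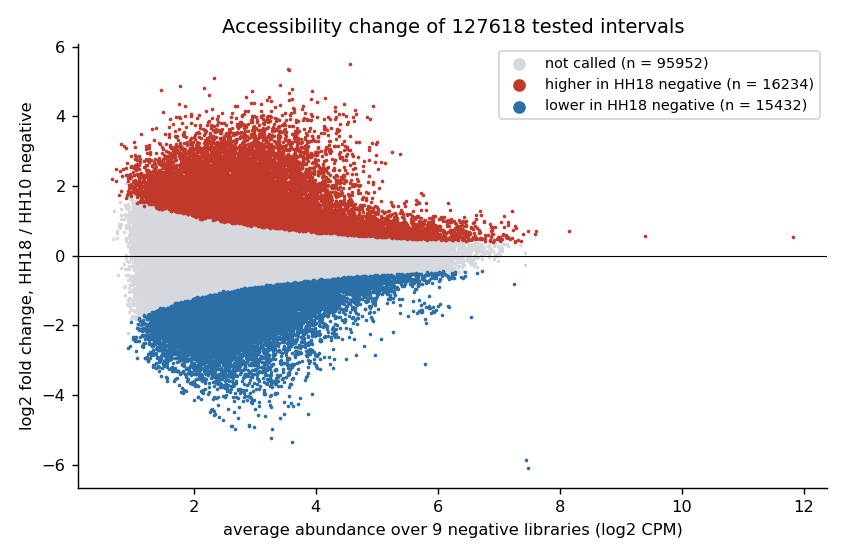
Each point is 1 of 127618 tested intervals, placed by average abundance over the 9 negative libraries (x axis, log2 CPM) and by log2 fold change of HH18 over HH10 negative cells (y axis). The 16234 intervals called higher are red, the 15432 called lower are blue and the 95952 not called are grey; calls reach smaller changes as abundance grows, and the 2 lowest points are the chromosome 8 pair at -6.09 and -5.86.

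Intervals that rose were, at the median, at 10.5 CPM in HH18 and 3.01 CPM in HH10 negative cells. Intervals that fell were at 2.79 CPM in HH18 and 9.50 CPM in HH10 negative cells. Over all tested intervals the medians were 4.55 CPM in HH18 and 4.76 CPM in HH10. With the tested intervals cut into 5 bins of equal size by abundance, 6.23% were called higher and 5.38% lower in the least abundant bin, and 20.6% higher and 13.9% lower in the most abundant bin. In bins 2, 3 and 4, lower calls outnumbered higher calls, at 8.88% higher and 10.5% lower, 12.2% higher and 14.7% lower, and 15.7% higher and 16.0% lower. The excess of rises over falls therefore sat in the least and the most abundant bins after TMM scaling. Shares per bin were not computed with loess offsets, a scaling that follows abundance. With those offsets, the 4 abundant intervals named below for having no call had log2 changes of -0.21 to -0.0845. After TMM scaling they had 0.0088 to 0.139. How far the lean of the most abundant bin depends on the scaling was not tested.

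Outside the contrast itself, the HH25 negative libraries and the sorted crest cells of HH18 give the level of the called intervals in other samples; as the calls set the first 2 groups apart, these are descriptions. The intervals that rose had a median of 7.47 CPM in HH25 negative cells, and those that fell had 3.40 CPM there, beside 4.76 CPM for all tested intervals. With one scaling over 21 libraries, the intervals that rose were at a median of 9.92 CPM in HH18 negative, 6.60 CPM in HH18 E2-only (NC2-, E2+), 5.67 CPM in HH18 double-positive (NC2+, E2+) and 2.83 CPM in HH10 negative cells. The intervals that fell were at 2.64, 2.68, 2.86 and 8.94 CPM in the same order of groups. The medians of the 3 HH18 populations lay close together for the falls and further apart for the rises. The calls were chosen on HH18 negative values and the falls lie nearer the floor, so this contrast can be partly set by that choice. Whether the stage change differs between populations was not tested.

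The strongest rises were near the detection limit in HH10 and well above it in HH18. The 10 named were the largest log2 changes among 9886 called intervals of above-median abundance with no overlap between groups. The first lies at chrZ:40885785-40885985 and had 49.9, 29.4 and 14.6 CPM in the HH18 libraries, against 0.513, 0.320 and 1.38 CPM in the HH10 libraries. All 3 HH18 values were at least 10 times the highest HH10 value, and the log2 fold change was 5.50 (SE 0.42, edgeR adjusted p = 1.88e-15). The second, at chrZ:39369086-39369286, had the tightest HH18 replicates, with 17.8, 18.9 and 19.3 CPM in HH18 and 0.171, 0.800 and 0.231 CPM in HH10 (log2 fold change 5.36, SE 0.44, edgeR adjusted p = 2.01e-14). The third, at chrZ:17293897-17294097, had 27.8, 24.1 and 11.7 CPM in HH18 and 0.513, 0.480 and 0.461 CPM in HH10. Its HH10 libraries held 3, 3 and 2 counts, so its change is given as the depth-corrected ratio of summed counts, 43.5 (95% counting interval 21.5 to 102.6). HH18 replicate 3 was the lowest HH18 library at the first and the third of these and the highest at the second. Single libraries near the floor move these sizes: the first had a log2 fold change of 4.84 without HH18 replicate 1 and 6.19 without HH10 replicate 3. The HH10 counts of the second were 1, 5 and 1, and its log2 fold change was 6.36 without HH10 replicate 2, 6.09 with 1 subtracted from every count and 7.01 when every library was thinned to the depth of the shallowest.

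Outside chromosome Z, the interval at chr4:48346879-48347079 had 11.2, 10.5 and 18.2 CPM in HH18 and 0.171, 0.640 and 0.461 CPM in HH10 (log2 fold change 4.91, SE 0.47, edgeR adjusted p = 1.94e-12). The interval at chr4:21173089-21173289 had 21.2, 25.2 and 19.7 CPM in HH18 and 0.342, 1.60 and 0.231 CPM in HH10 (log2 fold change 4.74, and 6.07 without HH10 replicate 2). It differs from the other named rises in its level at HH25, where the negative libraries had 4.24, 3.19 and 4.95 CPM. The other 9 had HH25 means of 9.61 to 38.9 CPM. The abundance required for naming was averaged over libraries that include HH25, which favours high HH25 levels among the named rises. The interval at chr1:25815119-25815319 had 33.6, 47.2 and 14.2 CPM in HH18 and 0.684, 1.28 and 1.38 CPM in HH10 (log2 fold change 4.73). The remaining rises lie at chr1:84166294-84166494, chr7:31135877-31136077, chrZ:22687979-22688179 and chrZ:62593513-62593713, with log2 fold changes of 4.78, 4.66, 4.56 and 4.55. In the first of these 4, HH18 replicate 3 had 6.57 CPM beside 22.7 and 27.3 CPM, the widest spread in relative terms among the 10. Without HH10 replicate 3, the log2 fold change was 6.01 at chr1:84166294-84166494 and 5.48 at chrZ:62593513-62593713.

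Of these 10 rises, 5 lie on chromosome Z, which holds 9.75% of all higher calls and 5.36% of tested intervals. With chromosome Z scaled on its own their log2 fold changes were 4.20 to 5.14. In the sorted crest cells of HH18 the means of the 10 were all below those of HH18 negative cells. The size of that gap was not tested, and choosing the largest rises in HH18 negative cells favours its direction. Means were 0.400 to 6.26 CPM in E2-only cells and 0.855 to 7.03 CPM in double-positive cells. They were 12.3 to 31.7 CPM in HH18 negative cells on the 9-library scaling. The highest of the crest values were 6.40 CPM at chr7:31135877-31136077 and 7.03 CPM at chrZ:62593513-62593713, both in double-positive cells and above the median of 4.28 CPM over all tested intervals in that group.

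**Figure D2:**
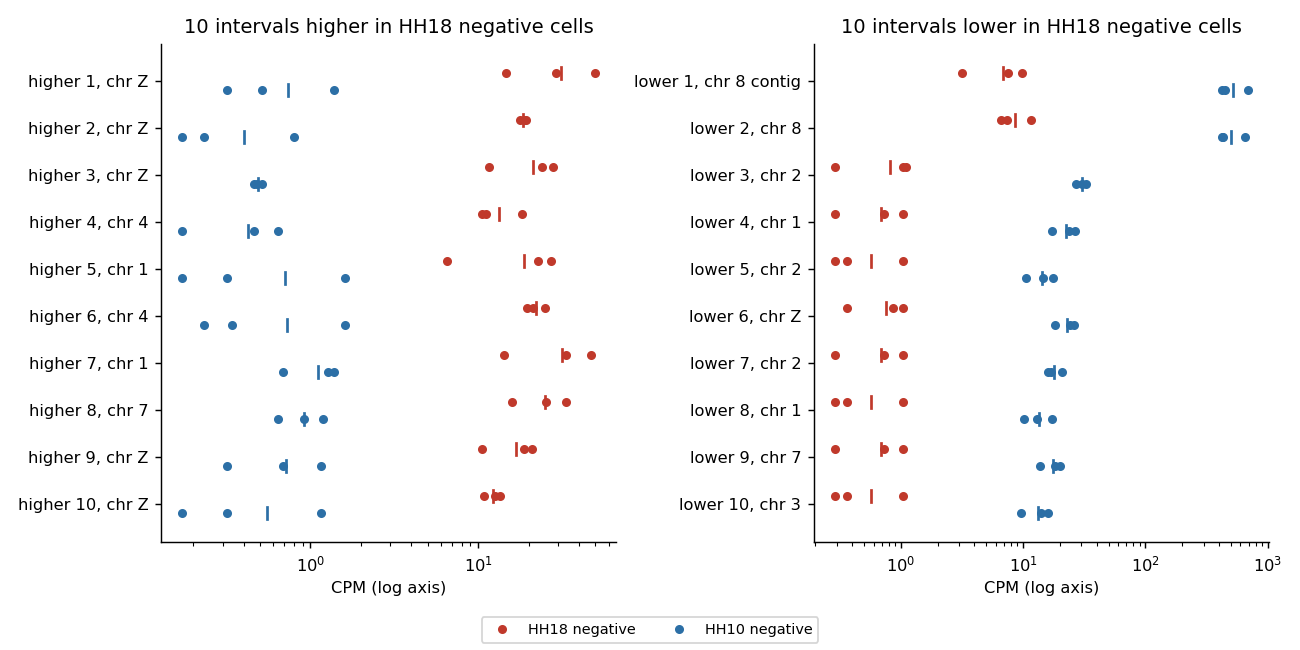
Values per library (points) and means (bars) of the 10 intervals with the largest rises (left panel) and the 10 with the largest falls (right panel), with HH18 negative libraries in red and HH10 negative libraries in blue, on a log axis of CPM. Groups do not overlap in any of the 20, which the rule for naming required; the first 2 falls stand near 500 CPM in HH10 (means 520.8 and 503.7 CPM) while the other 8 stand between 13.2 and 30.1 CPM.

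The strongest falls were a pair of intervals on chromosome 8 and one of its unplaced contigs, far above all other named falls in level. The interval at chr8:27835367-27835567 had 6.60, 7.34 and 11.7 CPM in the HH18 libraries and 658.0, 432.8 and 420.1 CPM in the HH10 libraries. The log2 fold change was -5.86 (SE 0.21, edgeR adjusted p = 1.87e-32). The contig interval chr8_NT_461478v1_random:4040-4240 had 7.46, 3.15 and 9.85 CPM in HH18 and 692.4, 444.8 and 425.2 CPM in HH10 (log2 fold change -6.09, SE 0.21, edgeR adjusted p = 1.14e-32). The HH10 values of the pair were close in each library, while the low HH18 values differed more, at 7 and 3 counts in replicate 2. Whether the pair are near-identical copies was not checked. If they are, reads may be split between them, and each level alone is uncertain. In the sorted crest cells of HH18 the chromosome 8 interval was not low: it had 161.1, 208.6 and 255.9 CPM in E2-only and 173.5, 279.1 and 271.9 CPM in double-positive cells. In HH25 cells it had 1.06, 0.851 and 1.98 CPM in negative libraries, and means of 3.22 ± 1.14 CPM in E2-only and 12.9 ± 6.17 CPM in double-positive cells (SD, n = 3).

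Other intervals around it were called at shares near those of all tested intervals. Of 13 other tested intervals within 50 kb, 2 fell (15.4%) and 1 rose (7.69%), beside 12.1% and 12.7% of all tested intervals. The closest on the left, 7.34 kb away, had 4.47 CPM in HH18 and 3.78 CPM in HH10 negative cells on the 21-library scaling, and the closest on the right, 4.42 kb away, had 6.75 CPM in HH18 and 9.43 CPM in HH10; neither passed the test (edgeR adjusted p = 0.691 and 0.514). The falls were at chr8:27859099-27859299, with 2.15 CPM in HH18 and 28.1 CPM in HH10 (log2 fold change -4.33, edgeR adjusted p = 4.70e-10), and at chr8:27854711-27854911, with 0.832 CPM in HH18 and 4.47 CPM in HH10 (log2 fold change -2.48, edgeR adjusted p = 0.00184). The rise was at chr8:27810542-27810742, with 15.3 CPM in HH18 and 8.18 CPM in HH10 (log2 fold change 0.94, edgeR adjusted p = 0.0183). Embryos of both stages carried NC2 reporter DNA, and counts do not separate reads of a reporter from reads of the chromosome; the sources at hand do not place NC2 in the genome, and its part in these values was not tested.

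**Figure D3:**
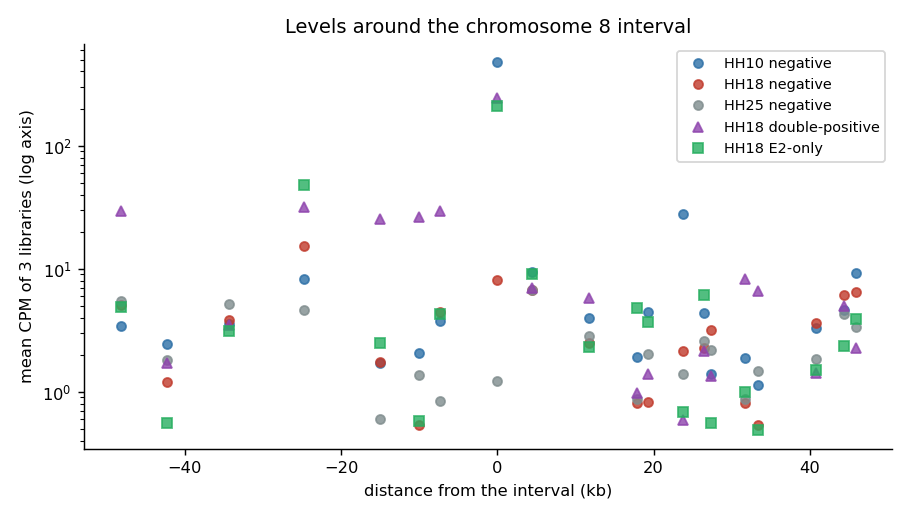
Mean CPM of 3 libraries per group (log axis, scaling over 21 libraries) for the intervals within 50 kb of the chromosome 8 interval, against distance in kb. At distance 0 the means were 473.9 CPM in HH10 negative, 241.5 CPM in HH18 double-positive and 208.6 CPM in HH18 E2-only cells. They stand far above the HH18 negative mean (8.05 CPM) and the HH25 negative mean (1.22 CPM). Most neighbours lie under 10 CPM in the negative groups. Some are higher in the HH18 crest groups, up to 31.8 CPM in double-positive and 47.95 CPM in E2-only cells, both at chr8:27810542-27810742.

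The other 8 named falls were accessible at HH10 and at the floor at HH18, with at most 3 counts in every HH18 library. Since a deposited 1 may stand for no read, their change is given as a ratio of summed counts corrected for depth, with a 95% counting interval. At chr2:87116363-87116563 the HH18 libraries had 1, 1 and 3 counts and the HH10 libraries 179, 203 and 118, a ratio of 0.0229 (0.00740 to 0.0538). At chr1:184737184-184737384 they had 1, 1 and 2 counts in HH18 and 157, 107 and 102 in HH10, a ratio of 0.0250 (0.00678 to 0.0646). At chrZ:2736392-2736592 they had 3, 1 and 1 counts in HH18 and 153, 115 and 104 in HH10, a ratio of 0.0308 (0.00994 to 0.0725). These 3 intervals held between 17.1 and 32.5 CPM in every HH10 library, and no HH18 library exceeded 1.09 CPM.

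The remaining 5 falls lie at chr2:140035383-140035583, chr2:106357953-106358153, chr1:196098063-196098263, chr7:8039832-8040032 and chr3:65138014-65138214. Ratios of summed counts (95% counting intervals) were 0.0286 (0.00586 to 0.0847), 0.0307 (0.00832 to 0.0795) and 0.0308 (0.00631 to 0.0912) for those on chromosomes 2 and 1, in this order. The intervals on chromosomes 7 and 3 had 0.0313 (0.00846 to 0.0809) and 0.0308 (0.00631 to 0.0912). At chr2:140035383-140035583, chr1:196098063-196098263 and chr3:65138014-65138214 every HH18 library was at the lowest deposited value, 1, so these ratios rest on the floor. The 8 intervals had means of 0.495 to 1.61 CPM in HH25 negative cells, a range that also holds the chromosome 8 pair. In the sorted crest cells of HH18, where the pair was high, the 8 had means of 0.273 to 1.92 CPM in E2-only and 0.467 to 1.64 CPM in double-positive cells. Intervals of this kind lean on a floor that is highest in the shallow HH18 replicate 2, where 1 count equals 1.05 CPM after TMM scaling.

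Some of the most accessible intervals showed no call. At chr16:245003-245203 the libraries had 114.5, 107.0 and 144.8 CPM in HH18 and 123.2, 139.6 and 103.4 CPM in HH10, overlapping groups with a log2 fold change of 0.01 (SE 0.15, edgeR adjusted p = 0.976). At chr1:121849761-121849961 they had 120.5, 134.2 and 116.0 CPM in HH18 and 115.9, 98.3 and 127.8 CPM in HH10 (log2 fold change 0.11). The others chosen for high abundance and a small change were chr13:10124139-10124339 and the contig interval chrUn_NT_477282v1:1720-1920, with log2 fold changes of 0.14 and 0.09. The most abundant called interval, chosen after its values were seen, was chr2:49766663-49766863, with 5041 ± 831 CPM in HH18 and 3474 ± 451 CPM in HH10 (SD, n = 3 each; log2 fold change 0.54, SE 0.09).

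Calls leaned towards rises on chromosome Z and towards falls on chromosome W. On Z, 1582 of 6838 tested intervals were called higher (23.1%) and 587 lower (8.58%), with a median log2 fold change of 0.36. On W, 1 of 100 was called higher and 32 lower (32.0%), with a median of -0.60. Contigs outside the assembled chromosomes, which include those assigned to W, leaned down, with 426 of 7391 higher (5.76%) and 1073 lower (14.5%). Chromosomes 1 to 5 had 13.5% higher and 11.9% lower, chromosomes 6 to 10 had 12.7% higher and 11.6% lower, and chromosomes 11 to 33 had 10.1% higher and 13.1% lower. Without HH18 replicate 1, the deepest HH18 library, the share called lower was 7.85% on chromosomes 1 to 5, 7.47% on 6 to 10, 7.91% on 11 to 33 (beside 7.58% higher), 5.70% on Z (beside 15.6% higher), 22.3% on W and 7.92% on contigs (beside 4.46% higher). Without HH10 replicate 1, 3.83% of contig intervals were called higher. Intervals of 1 chromosome share cells and scaling, so these shares are descriptions.

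**Figure D4:**
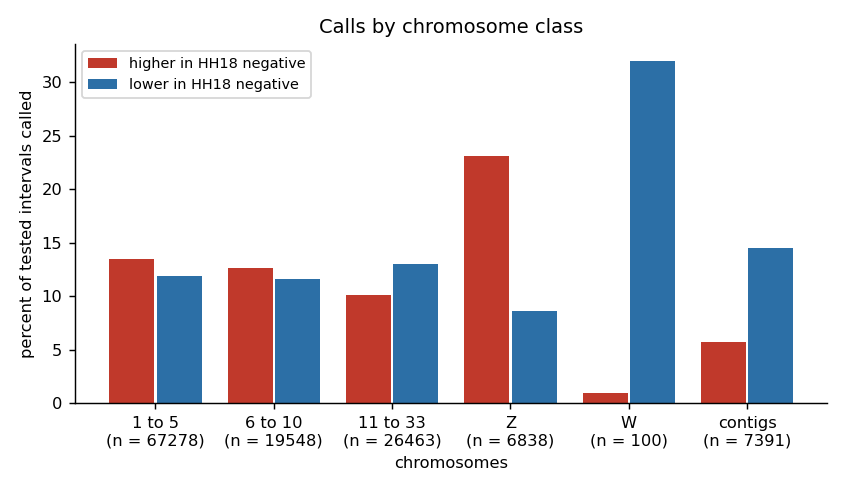
Bars give the percent of tested intervals called higher (red) and lower (blue) in HH18 negative cells for 6 classes of chromosomes, with the number tested under each. Chromosome Z has the tallest red bar (23.1%) and W the tallest blue bar (32.0%).

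The shares of all counts taken by Z and W differed in the same directions, at a number of libraries too small to reach 0.05. Chromosome Z took 6.22, 5.97 and 5.71% of counts in the HH18 libraries (5.97% ± 0.251, SD, n = 3) and 4.47, 4.48 and 5.16% in the HH10 libraries (4.71% ± 0.396, SD, n = 3). The groups did not overlap, and the difference of 1.26 percentage points had an exact two-sided permutation p of 0.1, the smallest that 3 against 3 allows (0.15 adjusted over 3 chromosome classes). Chromosome W took 0.0575, 0.0461 and 0.0709% in HH18 and 0.0798, 0.0748 and 0.0862% in HH10, also without overlap (exact two-sided permutation p = 0.1, adjusted 0.15). Over the 37 W intervals with 3 or more counts in each of the 6 libraries the W shares overlapped, with means of 0.0504% in HH18 and 0.0593% in HH10 (exact two-sided permutation p = 0.4). These W shares leave out contigs assigned to W. With those added, over all intervals, W took 0.115, 0.0967 and 0.147% in HH18 and 0.214, 0.202 and 0.184% in HH10 (not tested). Contigs took 5.50% ± 1.04 in HH18 and 6.78% ± 0.677 in HH10 (SD, n = 3 each; exact two-sided permutation p = 0.3). A higher Z share beside a lower W share accompanies each Z result; the part of the embryos' sex ratio in them was not tested.

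Scaling chromosome Z on its own, chosen after seeing the data, centres the changes on Z by construction, so an even split of its calls is set by the scaling; it shows which Z intervals differ from Z as a whole. It left 971 higher and 973 lower calls among 6855 tested Z intervals; all 971 were among the 1582 higher calls, and all 587 lower calls were kept. Without that scaling, higher calls were spread along the chromosome, with 16.4 to 29.2% of intervals called higher in each bin of 10 Mb. The bin from 20 to 30 Mb was the one in which lower calls came close to higher calls, at 16.4% against 17.7%. The 4 windows of 1 Mb with the highest share of higher calls were all on Z: 16 of 42 intervals (38.1%) at chrZ:5000001-6000000, 32 of 85 (37.7%) at chrZ:13000001-14000000, 35 of 98 (35.7%) at chrZ:59000001-60000000 and 26 of 74 (35.1%) at chrZ:14000001-15000000. Over 1020 windows with 20 or more tested intervals, the median share was 12.7% higher and 11.4% lower, and every window held a call.

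A block of chromosome Z went against the rest of it. In chrZ:27000001-27500000, 79 of 100 tested intervals fell and none rose, while on the rest of Z 508 of 6738 fell (7.54%) and 1582 rose (23.5%). The summed CPM of the block was 786.4, 878.8 and 1311 in the HH18 libraries, against 2854, 2446 and 2674 in the HH10 libraries. Every HH18 sum was below every HH10 sum, and the median log2 fold change was -1.49. The block was picked for its share of falls, so the direction of these values is set by that choice. With Z scaled on its own, 82 of the 100 fell and the median was -1.84. Joined at gaps under 20 kb, 3 runs of adjacent falls held 74 intervals between 27142852 and 27384178, over 241.3 kb. The longest run of falls on any chromosome was among them, with 31 intervals at chrZ:27299221-27384178 that summed to 110.5, 103.8 and 174.0 CPM in HH18 and 442.1, 376.4 and 385.3 CPM in HH10.

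The level of the block, given here as CPM of the unscaled library total, is set beside the sex chromosome shares of the same libraries. HH18 replicate 3 had the highest block level of its group (1300 CPM), the highest W share (0.0709%) and the lowest share for the rest of Z (5.58%). HH18 replicates 1 and 2 had 765.3 and 849.5 CPM, with W shares of 0.0575 and 0.0461%. The 6 sorted crest libraries of HH18 had 620.6 to 783.5 CPM at W shares of 0.0392 to 0.0643%. The HH10 negative libraries had 2806, 2472 and 2670 CPM at W shares of 0.0798, 0.0748 and 0.0862%. At HH25, 2 double-positive libraries had 2880 and 3221 CPM at W shares of 0.0758 and 0.0768%, and the other had 754.7 CPM at a W share of 0.0572%. The E2-only libraries of HH25 had 1847, 2061 and 2201 CPM at W shares of 0.0555, 0.0571 and 0.0578%, and the negative libraries of HH25 had 1827, 2123 and 2761 CPM at 0.0594, 0.0629 and 0.0704%. The rest of Z took 6.14 and 5.89% of counts in HH18 negative replicates 1 and 2 and 6.11 to 6.58% in the HH18 crest libraries, against 4.19, 4.24 and 4.90% in the HH10 negative libraries. At HH25 it took 4.78, 4.97 and 5.97% in the double-positive, 5.31, 5.11 and 5.12% in the E2-only and 5.27, 5.06 and 4.997% in the negative libraries, each in the order of the block levels given. The part of embryo sex in the block was not tested.

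**Figure D5:**
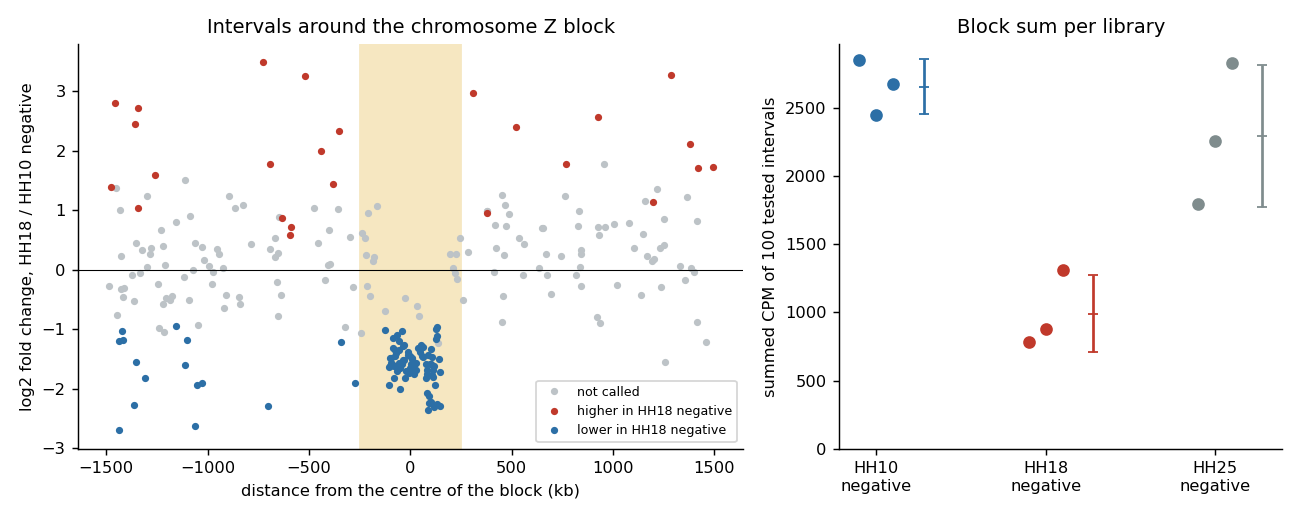
Left, log2 fold change of HH18 over HH10 negative cells for tested intervals against distance in kb from the centre of the 500 kb block (shaded), with rises in red, falls in blue and intervals not called in grey. Right, the summed CPM of the 100 tested intervals of the block per library (points) with mean and SD: 2658 ± 204.5 at HH10, 992.2 ± 280.3 at HH18 and 2294 ± 521 at HH25. The block was picked for its falls, which sets the direction between HH10 and HH18.

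Falls also gathered near the starts of chromosomes 13 and 27. In chr13:1-1000000, 31 of 49 tested intervals fell (63.3%), and their window summed to 317.7, 308.3 and 305.7 CPM in HH18 and 528.3, 539.5 and 523.0 CPM in HH10; on the rest of chromosome 13, 12.2% fell. Windows and runs were chosen for their falls, so the direction of these sums is set by that choice. A run of 16 falls further along, at chr13:1688250-1809112, summed to 24.97, 31.5 and 21.9 CPM in HH18 and 162.3, 162.3 and 166.8 CPM in HH10, with a median log2 fold change of -2.71. The HH25 libraries had 18.4, 15.3 and 14.4 CPM in that run. Allowing gaps up to 100 kb joined 18 falls at chr13:507076-695982, with 37.6, 40.9 and 32.5 CPM in HH18 and 155.7, 170.0 and 156.2 CPM in HH10.

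In chr27:1-1000000, 41 of 84 intervals fell (48.8%) and none rose, against 16.6% falling on the rest of that chromosome. The window, also picked for its falls, summed to 345.8, 291.5 and 439.2 CPM in HH18 and 706.4, 740.6 and 606.7 CPM in HH10. HH25 negative libraries had 255.6, 256.3 and 293.3 CPM there. The last of the 4 windows with the highest share of falls was chrW:3000001-4000000, where 10 of 24 fell (41.7%).

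Runs of rises were shorter. The longest held 7 intervals, at chr2:51755310-51789676 with 130.6, 73.4 and 81.4 CPM in HH18 and 36.6, 35.3 and 34.1 CPM in HH10, and at chr21:4687022-4715135 with 48.2, 88.1 and 68.2 CPM in HH18 and 19.1, 17.3 and 13.6 CPM in HH10. Runs of 6 lay at chr2:45574647-45627735, with 64.9, 81.8 and 72.6 CPM in HH18 and 23.6, 24.5 and 25.2 CPM in HH10, and at chrZ:5695355-5733925, with 107.6, 83.9 and 77.7 CPM in HH18 and 30.4, 26.2 and 36.9 CPM in HH10. The runs hold intervals already called higher, so the gap between the sums of the stages is set by that choice. At HH25 the first chromosome 2 run had 94.3 to 113.8 CPM, while the second had 31.5 to 36.6 CPM.

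Calls of 1 direction tended to have neighbours of that direction, by the counts that follow. The next interval was also called higher for 21.1% of higher calls with a neighbour under 1 kb away, against 12.0% of all such neighbours, and for 17.1% at 10 to 100 kb, against 13.3%. The next interval was also called lower for 20.7% of lower calls under 1 kb, against 13.7% of all such neighbours, and for 14.3% at 10 to 100 kb, against 11.1%. Under 1 kb, 8.10% of higher calls had a lower neighbour, against 13.7% of all such neighbours, and 7.63% of lower calls had a higher one, against 12.0%. In all, 2099 runs held 4734 rises (30.0% of rises on assembled chromosomes) and 1721 runs held 3929 falls (27.4%), but 24 runs of rises and 19 runs of falls reached 5 intervals. Close neighbours can share reads of 1 fragment, so these shares are descriptions with no test.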

How the data were processed

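ATAC-seq libraries of sorted chick cells underwent 20 min of tagmentation and 11 cycles of PCR before paired-end sequencing (reads of 40 bp), per the labels' protocols. The deposited values are raw counts of reads per interval, per the labels; of the 140062 intervals, 140061 span 200 bp and 1 spans 394 bp. Bowtie 1.0.0, MACS2, HOMER 4.7 and the galGal5 build are named in the submitters' processing notes without their roles. How intervals were called, and how duplicates and transposase offsets were treated, is not stated in those sources. Positions are given as deposited; whether they count from 0 or 1 is not stated, and 4 intervals start below 1. The lowest deposited count was 1. The number of intervals at 2 counts was 1.08 to 2.39 times that at 3 counts in HH18 negative and 0.728 to 0.950 times in HH10 negative libraries. These ratios lie on opposite sides of 1 and do not show whether both reads of a pair were counted. In that case counting intervals may be too narrow. They cover counting error only.

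Columns were matched to samples by population, stage and replicate, except that the HH10 negative columns, which name stage 12, were matched as the only negative columns outside HH18 and HH25; 6 columns of per-sample values were not used. The test was edgeR's quasi-likelihood test (edgeR 4.0.16, limma 3.58.1, R 4.3.3) after filterByExpr and TMM scaling, fitted to the 9 negative libraries with a mean for each group, with Benjamini-Hochberg adjustment over all 127618 tested intervals. CPM values use the TMM-scaled totals of the 9 libraries, or of 21 libraries where crest cells are included. DESeq2 1.42.0, other scalings, filters, thinning and left-out libraries were alternatives; the fit of 21 libraries, of chromosomes 1 to 33 alone and of Z alone were chosen after seeing the data. The procedure was tested on simulated counts. A first requirement, that most 4-fold changes be called in each direction, was not met for falls, for a reason that was not tested. It was replaced by limits on sign, fold and false calls.

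Named intervals are the 10 largest rises and 10 largest falls among called intervals without overlap between groups, above the median abundance and over 10 kb apart; the 4 most abundant with adjusted p above 0.5 and absolute log2 change under 0.2; the 4 longest runs per direction with gaps under 20 kb; and the 4 windows of 1 Mb with the highest share per direction. Members and rules were chosen with earlier results of these data known. Gene assignment, marker lists and sequences were not used, for want of an annotation of the build.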

Additional observations from a re-analysis of the deposited data

How the results depend on the processing

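Alternatives to the count of calls numbered 18. Thinning all libraries to the lowest total (992341 reads) left 9466 calls (4646 higher, 4820 lower) among 35148 tested intervals. Of the 31666 calls made here, 18592 were no longer tested after thinning and 8792 were called again. An adjusted p below 0.01 left 19926 calls (10537 higher, 9389 lower). Leaving out 1 replicate at a time gave 22274 to 29100 calls, 11950 to 15190 higher and 10324 to 13910 lower, with median log2 changes of all intervals of -0.02 to 0.01. These fits tested 130823 to 134548 intervals. Of the calls made here, 65.3% were called again without HH18 replicate 1, and 74.4 to 84.1% with any other replicate left out. Chromosome Z scaled on its own gave 971 higher and 973 lower calls, a split set by centring Z on itself. DESeq2 called 14401 higher and 11256 lower intervals, which held 81.0% of the calls made here. Lower calls were more numerous with library totals alone (15459 higher, 16291 lower), counts minus 1 (13758, 14902), thinning and the 6 libraries alone (15120, 15128), so which direction leads depends on the setting. No interval called both here and under an alternative changed sign. All 359 alternative values of the 20 named rises and falls kept their direction and side of the threshold, but not always their size: with counts minus 1 the 8 falls at the floor had log2 changes of -6.19 to -8.90, and the rise at chrZ:22687979-22688179 had 3.17 after thinning, against 4.56. The 4 named intervals with no call stayed uncalled in all 71 alternative values, but their log2 changes, all near 0, took the other sign in 10: with loess offsets at chrUn_NT_477282v1:1720-1920 (-0.16), chr13:10124139-10124339 (-0.0845), chr16:245003-245203 (-0.21) and chr1:121849761-121849961 (-0.11); with thinning at the contig (-0.18) and chromosome 16 (-0.11) intervals; and on chromosome 16 with library totals alone (-0.0249). Leaving out 1 replicate at a time gave -0.029 (without HH18 replicate 2) to 0.21 for the contig interval and -0.0942 (without HH18 replicate 3) to 0.121 for the chromosome 16 interval, which was also below 0 without HH10 replicate 3 (-0.0834). The cause was not tested. Deviations of same-numbered HH10 and HH18 replicates correlated at 0.00975, 0.0404 and 0.0444, and those of other pairs at -0.0482 to 0.0147. HH10 replicates 2 and 3 correlated best with the HH18 replicate of the same number, and HH10 replicate 1 with HH18 replicate 2 (0.0147). Whether the numbers mark a shared batch was not tested. The replicate block gave 31395 calls (16035 higher, 15360 lower). The planned fit over 27 libraries and the interaction tests were not run, since 6 columns were not matched to samples. The shallow HH18 replicate 2, where 3 counts equal 3.02 CPM, limits what can be said of low intervals.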
